A study of Homo sapiens with 12 samples.

Results

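Matrix metalloproteinases and their tissue inhibitors were followed in 2 cell lines treated with annonaceous acetogenins. The members were 10 genes taken by name from the deposited tables: the secreted proteases MMP1, MMP3, MMP7, MMP9, MMP10 and MMP13, the membrane-bound protease MMP14, and the inhibitors TIMP1, TIMP2 and TIMP3. All 10 were listed among the 29657 genes of the SCC15 table and among the 31055 genes of the SCC25 table. The RNA came from SCC15 and SCC25, wild-type lines from squamous cell carcinoma of the tongue, after 24 h with ACGs or with the solvent DMSO, in 3 libraries per treatment and line (12 in all). The labels name the treatment ACGs, and the compound given was squamocin at 10 µg/mL, a member of that class of lipids from Annona seeds that inhibit mitochondrial Complex I. Both lines are established cultures of carcinoma cells grown without stroma. The libraries are numbered within each treatment, and nothing in the labels ties a number to a separate culture, so p-values measure only the spread between these samples, which may be technical.

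Matrix metalloproteinases are zinc endopeptidases made as inactive proenzymes. Once the propeptide is removed they cut collagens, laminins and other proteins of the extracellular matrix and shed proteins from the cell surface. TIMPs bind the active site of the active enzymes and block it. In oral squamous cell carcinoma these proteases are known for their part in the breakdown of the basement membrane and in invasion, and the stroma makes much of the protease and inhibitor that a tumour holds. Transcript levels, the quantity measured here, are 1 of several layers of control, after which come secretion, activation of the proenzyme and inhibition.

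The libraries held 16665563 to 22748845 reads on genes. The deposited value of a gene is its read count over a size factor that each library was given within its own line, and is called the normalized count here. Changes are differences of log2(normalized count + 1) between ACGs and DMSO, tested with limma on genes with a mean of at least 10 normalized counts and adjusted by Benjamini-Hochberg over all genes tested in a line, 15902 in SCC15 and 16539 in SCC25. The log2 fold changes of low genes are understated on this scale. Much of the transcriptome passed the test at an adjusted p below 0.05, with 61.0% of the genes tested in SCC15 and 76.8% in SCC25. After the authors' scaling, library totals were 15466464 to 15535484 with DMSO and 20467856 to 24626253 with ACGs in SCC15, and 18245022 to 18333723 against 20917114 to 21265099 in SCC25. Scaling all libraries of a line to equal totals lowered the median log2 fold change of all genes by 0.49 in SCC15 and by 0.21 in SCC25, so changes of that size or less depend on the scaling. SCC15 ACGs replicate 3 stood apart from the other libraries of its group (chi-square per degree of freedom of 64.1 and 56.8 against replicates 1 and 2, and 1.67 to 9.95 for the other 10 pairs within groups).

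ACGs treatment was followed by higher levels of MMP1, MMP3, MMP14, TIMP1 and TIMP3 in SCC15 cells and of MMP10, TIMP1 and TIMP2 in SCC25 cells, while MMP7, MMP13 and TIMP3 fell in SCC25 cells. MMP1 rose 12.1-fold in SCC15, and in SCC25 MMP7 was 9.50-fold and TIMP3 29.9-fold lower with ACGs. TIMP1 rose in both lines, 3.35-fold in SCC15 and 2.47-fold in SCC25 (ratios of mean normalized counts, n = 3 per group). Of the 6 members tested in SCC15, 5 passed the test as higher and 0 as lower, where 30.9% of all genes tested passed as higher and 30.0% as lower. With equal library totals these counts became 4 higher and 2 lower, the latter being TIMP2 and TIMP3. Of the 8 members tested in SCC25, 3 passed as higher and 3 as lower, where 38.3% and 38.5% of all genes tested did so, and with equal totals 2 passed as higher and 3 as lower. MMP3 in SCC15 and MMP13 in SCC25 passed the mean of 10 through the group in which they were high, so these counts are a description. The shares of all genes above are for the authors' scaling. With equal totals the median log2 fold change of all genes tested was -0.48 in SCC15 and -0.22 in SCC25. The shares of all genes called with equal totals were not counted, so counts with equal totals, here and for the lists below, have no such share beside them. The ACGs and DMSO libraries did not overlap for 6 of 6 members in SCC15, all higher (70.6% of all genes tested did not overlap, with 35.7% higher and 34.9% lower). In SCC25 this held for 7 of 8 members (79.0% of all genes tested), 4 of them higher (39.4%) and 3 lower (39.6%). The median log2 fold change of the members tested was 1.29 in SCC15 and 0.14 in SCC25, against 0.012 and -0.015 for all genes tested.

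**Figure D1:**
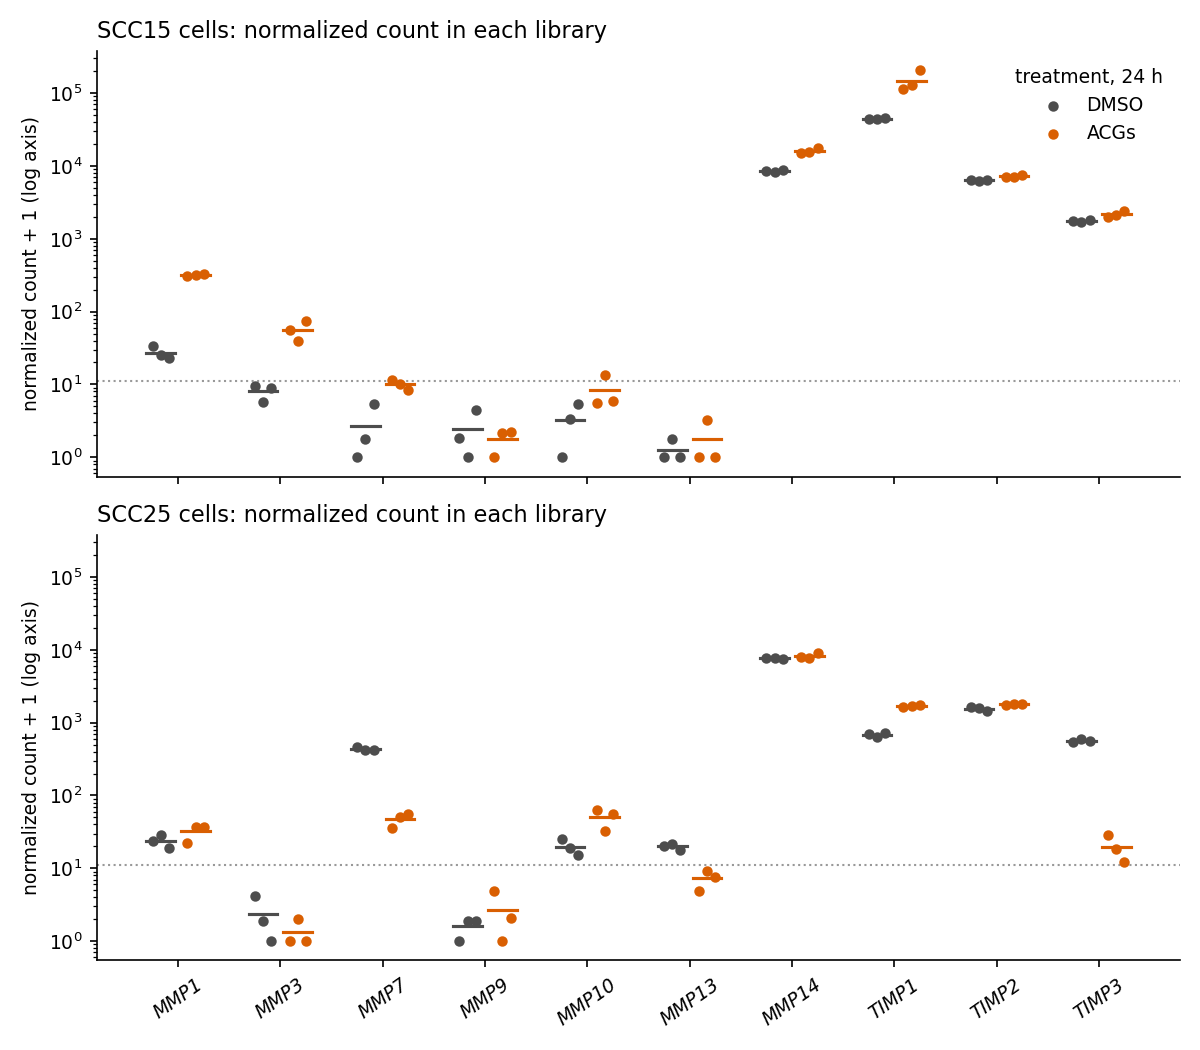
Normalized count plus 1 on a log axis for each of the 10 members in SCC15 (upper panel) and SCC25 cells (lower panel). Points are the 3 libraries per treatment, short lines are group means, and the dotted line marks a normalized count of 10, the mean required for a test. MMP1 in SCC15 and MMP7 and TIMP3 in SCC25 show wide gaps between treatments, and the MMP9 points of both lines lie below the dotted line.

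In DMSO-treated cells the 2 lines held unlike sets of these transcripts. Levels between genes and lines are given as RPKM, the reads per kilobase of exonic sequence (GENCODE release 44) relative to the reads on genes of the library, computed from the recovered reads as a description, because the tables were normalized separately and no test between them was made. In SCC15 with DMSO the order of the mean levels was TIMP1 at 1983 ± 50.4 RPKM (SD, n = 3), MMP14 at 120.2 ± 3.40, TIMP2 at 66.3 ± 1.45, TIMP3 at 24.6 ± 0.901, MMP1 at 0.618 ± 0.129 and MMP3 at 0.245 ± 0.0706, and the ranges of neighbours in this order did not overlap. MMP10, MMP7, MMP9 and MMP13 followed at 0.0824 or less, with overlapping ranges. In SCC25 with DMSO the order was MMP14 at 90.2 ± 0.197, TIMP1 at 25.9 ± 1.66, TIMP2 at 13.8 ± 0.835, MMP7 at 10.3 ± 0.556 and TIMP3 at 6.73 ± 0.295, again without overlap of neighbours. MMP10 (0.584), MMP1 (0.454) and MMP13 (0.366) came next with ranges that overlapped their neighbours within the trio, and MMP3 and MMP9 were at 0.0405 or less. TIMP1 stood 76.6-fold higher in SCC15 than in SCC25 on this scale, and MMP7 stood 215-fold higher in SCC25 than in SCC15, where it had 0 to 5 reads per DMSO library.

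MMP1, interstitial collagenase, cuts fibrillar collagens. In SCC15 it had 32.4, 24.5 and 21.8 normalized counts with DMSO and 309.5, 313 and 327 with ACGs. The ACGs libraries lay close together, all far above the DMSO libraries, with SCC15 ACGs replicate 3 highest by little. MMP1 changed by 3.56 on the log2 scale (SE 0.17, adjusted p = 1.25e-05 by limma). In SCC25 MMP1 had 22.6, 27.9 and 17.7 normalized counts with DMSO and 21.6, 36.4 and 35.5 with ACGs. The SCC25 groups overlapped, with ACGs replicate 1 inside the DMSO range, and the log2 fold change of 0.43 (95% interval -0.21 to 1.06) did not pass the test (limma, adjusted p = 0.198). Without SCC25 ACGs replicate 1 it was 0.66 (limma, adjusted p = 0.0480), and over all libraries left out in turn it ran from 0.27 to 0.66. In these bulk libraries a changed level per cell and a changed number of cells that express a gene cannot be told apart.

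MMP3 and MMP10, the stromelysins, cleave many matrix proteins and activate other proMMPs. MMP3 had 8.53, 4.74 and 7.86 normalized counts in SCC15 with DMSO and 54.5, 38.8 and 73.4 with ACGs, where SCC15 ACGs replicate 3 was the highest. These groups did not overlap, and MMP3 changed by 2.80 on the log2 scale (SE 0.34, limma adjusted p = 4.29e-04), with a range of 2.58 to 3.03 when each library was left out in turn. In SCC25 MMP3 had 0 to 4 reads per library and was not tested. MMP10 showed the reverse distribution between the lines, with 0 to 11 reads per library and no test in SCC15. In SCC25 it had 24.2, 18.0 and 14.2 normalized counts with DMSO and 62.3, 31.2 and 55.5 with ACGs, so that ACGs replicate 2 lay nearest to the DMSO libraries without reaching them. Its log2 fold change in SCC25 was 1.33 (SE 0.31, limma adjusted p = 0.00160), from 16 to 50 reads per library.

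MMP7, matrilysin, is a small protease made mostly by epithelial cells and lacks the hemopexin domain of the other MMPs here. On the RPKM scale it was the highest of the 6 secreted MMPs in SCC25 cells with DMSO. Its normalized counts in SCC25 were 464, 424 and 419.6 with DMSO and 34.3, 48.9 and 54.4 with ACGs. The 3 ACGs libraries lay together, far below the DMSO libraries. MMP7 had a log2 fold change of -3.24 (SE 0.16, limma adjusted p = 1.38e-09), and leaving out each library in turn gave -3.38 to -3.05. In SCC15 MMP7 had 0, 1 and 5 reads with DMSO and 9, 8 and 6 with ACGs, below the mean required for a test. When all genes above 0 were tested in SCC15, its log2 fold change was 2.22 (limma, adjusted p = 0.0249), at a level of at most 9 reads per library.

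MMP13, collagenase-3, and MMP9, gelatinase B, had few reads in most libraries. MMP13 in SCC25 had 19.3, 20.7 and 16.8 normalized counts with DMSO and 3.81, 8.32 and 6.66 with ACGs. The ACGs libraries all lay below the DMSO libraries, at 3 to 8 reads each, and the log2 fold change was -1.51 (SE 0.39, limma adjusted p = 0.00334). In SCC15 MMP13 had 0 to 2 reads per library. MMP9 had 0, 1 and 1 reads with ACGs and 1, 0 and 4 with DMSO in SCC15, and 3, 0 and 1 against 0, 1 and 1 in SCC25. A change in MMP9 was not detectable at this depth. MMP9 shares 430 exonic bases with SLC12A5-AS1 on the other strand, which had 1 to 10 reads per library in SCC15, and the strand setting of the authors' counting is not given in the sources used here, so reads of that pair cannot be told apart.

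The 5 members MMP7, MMP10, MMP1, MMP3 and MMP13 lie in this order on chromosome 11 (GRCh38, 102520508 to 102955734), all on the minus strand, in a stretch of 435 kb that holds 13 listed genes, 8 of them protein coding. Within it, MMP10 rose and MMP7 and MMP13 fell in SCC25, while MMP1, which lies next to MMP10, did not pass the test there. WTAPP1, a pseudogene on the other strand, shares 223 exonic bases with MMP1 and 32 with MMP3 and had 0 to 7 reads per library in SCC25. The other members lie apart, MMP9 at chr20:46008908-46016561, MMP14 at chr14:22836557-22849027, TIMP1 at chrX:47582313-47586789, TIMP3 at chr22:32801701-32863043 (all plus strand) and TIMP2 at chr17:78852977-78925387 (minus strand). TIMP2 shares 224 exonic bases with CEP295NL on its own strand, which had 1 to 22 reads per library. SYN1 overlaps TIMP1, SYN3 overlaps TIMP3, and AC100788.1 and AC100788.2 overlap TIMP2, with 0 shared exonic bases and at most 18 reads per library.

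RefSeq promoter windows (GRCh38.p14, 250 bases before to 50 after the start) were at hand for 5 of the 10 members: MMP7, MMP10, MMP14, TIMP1 and TIMP3. The upstream bases of MMP7 (chr11:102530754-102530927, minus strand) and MMP10 (chr11:102780629-102780808, minus strand) are shown because these genes of 1 cluster moved in opposite directions in SCC25. They are written 5′ to 3′ on the strand of the gene, and capitals mark matches to AP-1 (TGANTCA), the TATA box (TATAAA) and ETS (AGGAAG, or CTTCCT on the other strand). Of the 180 bases upstream of the RefSeq start, those inside the gene as the deposited data place it are left out. This left 174 bases of MMP7 and 180 of MMP10. Positions of matches are counted from the RefSeq start, so in a shortened string they lie nearer to its end.
MMP7: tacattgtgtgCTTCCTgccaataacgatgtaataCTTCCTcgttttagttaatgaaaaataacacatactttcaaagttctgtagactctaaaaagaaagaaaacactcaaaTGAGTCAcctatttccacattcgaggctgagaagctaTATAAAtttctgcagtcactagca
MMP10: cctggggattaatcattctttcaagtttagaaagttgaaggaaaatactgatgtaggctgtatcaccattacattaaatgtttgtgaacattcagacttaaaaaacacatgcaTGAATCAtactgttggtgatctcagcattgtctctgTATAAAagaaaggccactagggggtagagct
Both windows hold an AP-1 match that begins 67 bases upstream of the RefSeq start, TGAGTCA in MMP7 and TGAATCA in MMP10. Each also holds a TATA box, which begins 30 and 31 bases upstream of that start. An AP-1 match is found in 7.71% of all 35116 RefSeq promoter windows of this length and a TATA box in 11.5%, each searched on both strands. MMP7 also holds 2 ETS matches, 169 and 145 bases upstream (33.6% of all windows). No 2 matches of these motifs overlap, and a match is a description of the letters, not a binding site.

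MMP14, the membrane-type protease MT1-MMP, sits on the cell surface, cuts collagen and activates proMMP2 with TIMP2 as a bridge. It was the highest protease transcript among the members in both lines. In SCC15 its normalized counts were 8633, 8383 and 8831 with DMSO and 15009, 15320.0 and 17448 with ACGs, without overlap. The log2 fold change was 0.88 (SE 0.10, limma adjusted p = 3.20e-04), and with equal library totals it was 0.39 and still passed the test (limma, adjusted p = 0.00309). In SCC25 the counts were 7664, 7621 and 7594 with DMSO and 7861, 7741 and 8957 with ACGs. Here the ACGs libraries lay above the DMSO libraries by little, apart from replicate 3, and the log2 fold change of 0.099 (95% interval -0.013 to 0.21) did not pass the test (limma, adjusted p = 0.0978). It was 0.14 without SCC25 ACGs replicate 2 (limma, adjusted p = 0.0321), 0.033 without SCC25 ACGs replicate 3 (limma, adjusted p = 0.245) and -0.11 with equal totals (limma, adjusted p = 0.0875).

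TIMP1 is a secreted inhibitor of most soluble MMPs and a weak one of MMP14. In SCC15 its normalized counts were 43542, 44217 and 45597 with DMSO and 112665, 127329 and 207142 with ACGs. All ACGs libraries were above the DMSO libraries, and SCC15 ACGs replicate 3 was well above the other two. TIMP1 had a log2 fold change of 1.69 (SE 0.24, limma adjusted p = 7.89e-04), with a range of 1.43 to 1.87 when each library was left out. In SCC25 the counts were 688, 639 and 725 with DMSO and 1629, 1704 and 1726 with ACGs. The libraries within each treatment were close to each other and the groups far apart, with a log2 fold change of 1.30 (SE 0.059, limma adjusted p = 7.00e-10). With equal totals TIMP1 stayed higher, by 1.20 in SCC15 and by 1.09 in SCC25 on the log2 scale, and passed the test in both (limma, adjusted p = 6.01e-04 and 4.48e-09).

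TIMP2 inhibits MMPs widely and also takes part in the activation of proMMP2. Its normalized counts were 6513, 6244 and 6379.6 with DMSO and 6995, 7043 and 7563 with ACGs in SCC15. The groups did not overlap, and the log2 fold change of 0.17 (95% interval -0.024 to 0.37) did not pass the test (limma, adjusted p = 0.110). Without SCC15 ACGs replicate 3 it was 0.14 and passed (limma, adjusted p = 0.00356), and with equal totals it was -0.32 and passed as lower (limma, adjusted p = 0.00917). In SCC25 the counts were 1660.2, 1566 and 1463 with DMSO and 1768, 1789.7 and 1775 with ACGs. The log2 fold change in SCC25 was 0.19 (SE 0.053, limma adjusted p = 0.00604) and -0.021 with equal totals (limma, adjusted p = 0.724), so the direction of TIMP2 depends on the scaling in both lines.

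TIMP3 is held in the extracellular matrix and inhibits ADAM17 and other ADAM proteases besides MMPs. In SCC25 its normalized counts were 549, 594 and 555 with DMSO and 28.0, 17.7 and 11.1 with ACGs, from 10 to 22 reads per ACGs library. Every ACGs library lay far below every DMSO library, and the log2 fold change was -4.92 (SE 0.24, limma adjusted p = 1.64e-09), with a range of -5.24 to -4.61 when each library was left out. In SCC15 the counts were 1749.7, 1694 and 1814 with DMSO and 2016, 2087 and 2390.2 with ACGs. These groups did not overlap, and the log2 fold change of 0.30 (SE 0.093) passed the test (limma, adjusted p = 0.0248). The call in SCC15 was lost without DMSO replicate 1, 2 or 3 (limma, adjusted p = 0.0834, 0.0992 and 0.0662), and with equal totals the value was -0.20 and passed as lower (limma, adjusted p = 0.0492).

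The upstream bases of MMP14 (chr14:22836405-22836556, plus strand) and TIMP3 (chr22:32801525-32801700, plus strand) are shown beside those of MMP7 and MMP10 because they are of another kind, with GC boxes (GGGCGG, or CCGCCC on the other strand, in capitals) and no match to AP-1 or the TATA box in the window.
MMP14: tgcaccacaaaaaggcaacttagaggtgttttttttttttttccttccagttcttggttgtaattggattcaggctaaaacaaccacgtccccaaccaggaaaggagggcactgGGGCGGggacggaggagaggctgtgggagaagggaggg
TIMP3: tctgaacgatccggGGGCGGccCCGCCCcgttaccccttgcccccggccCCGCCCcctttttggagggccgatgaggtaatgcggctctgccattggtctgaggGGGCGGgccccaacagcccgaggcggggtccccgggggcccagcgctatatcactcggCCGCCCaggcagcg
MMP14 holds 1 GC box, 66 bases upstream of the RefSeq start, and TIMP3 holds 5, between 166 and 18 bases upstream of it. The bases shown were shortened as for MMP7, to 152 for MMP14 and 176 for TIMP3. TIMP1 holds GC boxes 135 and 45 bases upstream of its RefSeq start and an ETS match 87 bases upstream of it. That start lies inside the gene as the deposited data place it, as do the nearer GC box and the ETS match. A GC box is found in 45.0% of all RefSeq windows.

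**Figure D2:**
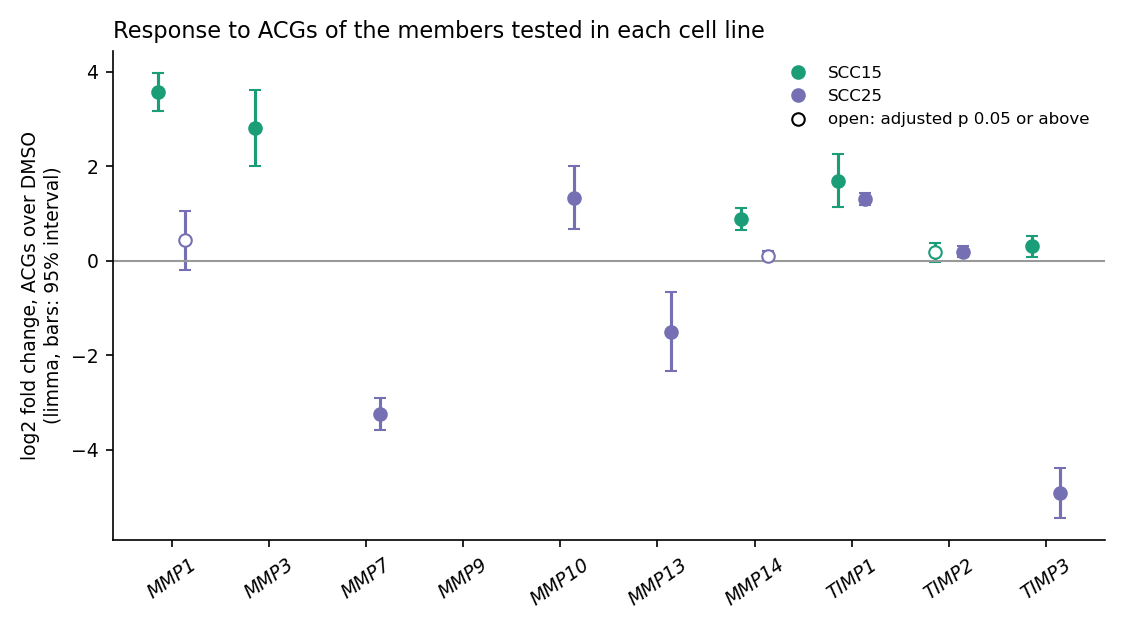
Log2 fold change of ACGs over DMSO for the members tested in SCC15 (green) and SCC25 (purple), with 95% intervals from limma. Filled points passed the test at an adjusted p below 0.05 and open points did not. TIMP3 stands at 0.30 in SCC15 and at -4.92 in SCC25, whereas the 2 TIMP1 intervals overlap.

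Whether the response differed between the lines was tested in 1 model of all 12 libraries, for the genes with a mean of at least 10 in each table. Of the 5 members tested in both lines, 3 differed (MMP1, MMP14 and TIMP3), where 52.2% of the 14454 genes tested in both did so. All 3 had the lower log2 fold change in SCC25 (26.1% of all genes) and 0 the higher (26.0%). The difference, SCC25 minus SCC15, was -5.22 for TIMP3 (SE 0.31, limma adjusted p = 8.16e-08), -3.14 for MMP1 (SE 0.34, limma adjusted p = 9.16e-06) and -0.78 for MMP14 (SE 0.11, limma adjusted p = 9.80e-05). All 3 stayed past the test with equal totals, at -4.93, -2.85 and -0.49. For TIMP1 the difference was -0.39 (95% interval -0.90 to 0.12, limma adjusted p = 0.179), and it was -0.57 without SCC15 ACGs replicate 1 (limma, adjusted p = 0.0317) and -0.13 without SCC15 ACGs replicate 3 (limma, adjusted p = 0.143). For TIMP2 it was 0.013 (95% interval -0.19 to 0.21, limma adjusted p = 0.916), and 0.30 with equal totals (limma, adjusted p = 0.0140). With all genes above 0 tested, MMP7 and MMP3 also differed, by -5.47 (limma, adjusted p = 1.08e-05) and -3.46 (limma, adjusted p = 0.00280), each from a line in which the gene had few reads.

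Within a library, ratios between members do not depend on the scaling. TIMP1 made up 95.5% to 95.7% of the summed TIMP1, TIMP2 and TIMP3 reads per kilobase in SCC15 with DMSO and 98.0% to 98.8% with ACGs. In SCC25 its share was 53.7% to 58.5% with DMSO and 79.5% to 80.5% with ACGs, while that of TIMP3 was 13.8% to 15.7% and then 0.163% to 0.429%. The ranges of the treatments did not overlap in either line. The ratio of TIMP2 to MMP14 per kilobase was 0.538 to 0.562 in SCC15 with DMSO and 0.323 to 0.347 with ACGs, and in SCC25 0.143 to 0.161 and 0.148 to 0.172, where the ranges overlapped. The summed RPKM of the 6 secreted members was 0.868 to 1.17 in SCC15 with DMSO and 6.73 to 7.31 with ACGs, and in SCC25 11.1 to 12.6 and 2.61 to 3.39. It is relative to the reads on genes of a library, not a ratio between members. The sum of these members was thus higher with ACGs in SCC15, led by MMP1, and lower in SCC25, led by MMP7. Other secreted MMPs are not in it. In SCC15 MMP2 had 1097 to 1184 reads per library with DMSO and 689 to 808 with ACGs (log2 -0.16, limma adjusted p = 0.208). MMP1 had 25 to 38 and 263 to 275 there.

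**Figure D3:**
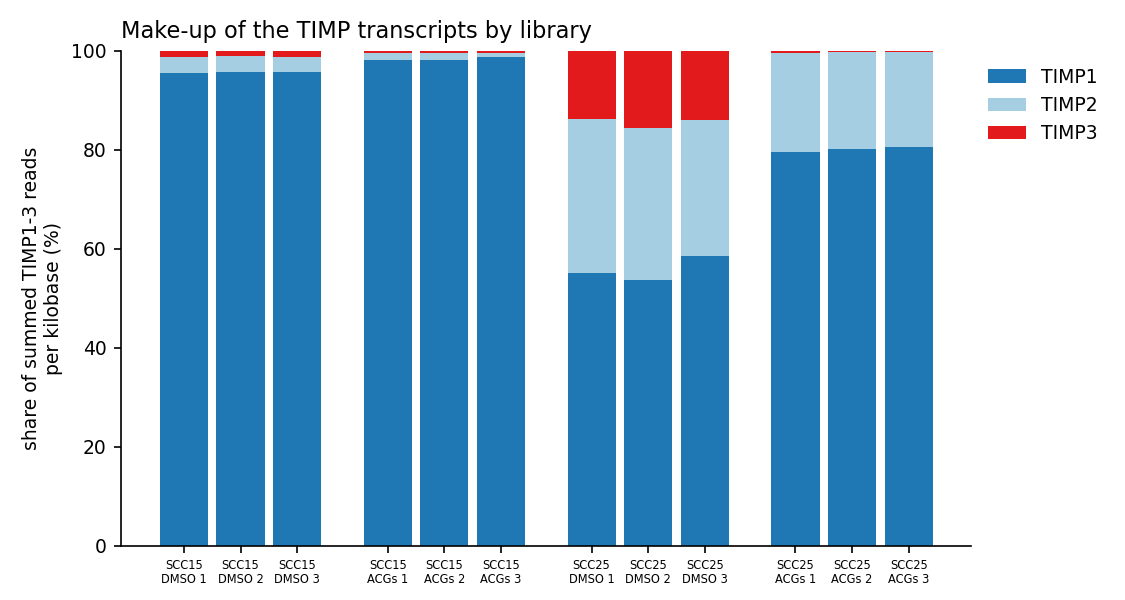
Share of TIMP1, TIMP2 and TIMP3 in the summed TIMP reads per kilobase, as stacked bars for each of the 12 libraries. TIMP1 fills over 95% of each SCC15 bar, and the TIMP3 part of the SCC25 bars shrinks from 13.8% to 15.7% with DMSO to 0.163% to 0.429% with ACGs.

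Among protein-coding genes with a mean of at least 100 in both lines, the gene most like each member over the 12 libraries was found as that with the smallest root mean square difference, on log2(normalized count + 1) centred within each line. It was ELF3 for MMP1 (0.281), HSP90AB1 for MMP14 (0.0389), RGS10 for TIMP1 (0.0548), KLHL36 for TIMP2 (0.0436) and EVA1C for TIMP3 (0.508). ELF3 had log2 fold changes of 3.40 in SCC15 and 0.22 in SCC25 and EVA1C had 0.70 and -3.80. The measure grows with the size of a change and with counting noise, so its values are not compared between members.

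Genes around the members were taken as lists from general knowledge. The other MMPs, TIMP4 and RECK, a membrane-anchored MMP inhibitor, are 18 genes, of which 10 were tested in SCC15 (1 higher, 2 lower) and 8 in SCC25 (1 higher, 4 lower). The lower count in SCC15 was 7 with equal totals and 4 without SCC15 ACGs replicate 3. MMP28, epilysin, rose from 105 ± 18.5 to 227 ± 51.7 normalized counts (mean ± SD, n = 3) in SCC15 (log2 1.10, limma adjusted p = 0.00281) and fell from 81.2 ± 14.2 to 40.9 ± 17.8 in SCC25 (log2 -1.05, limma adjusted p = 0.00428). MMP15, a membrane-type MMP like MMP14, fell in both lines, with log2 fold changes of -0.88 and -1.02. Its values went against those of MMP14, which rose in SCC15 and did not pass in SCC25.

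Plasmin, made from plasminogen by the activators PLAU and PLAT, activates several proMMPs. Of the 9 genes of plasminogen activation, 8 were tested in each line, of which 5 rose and 1 fell in SCC15 and 7 rose and 1 fell in SCC25. SERPINB2, which encodes an inhibitor of the activators, rose by 1.36 in SCC15 and by 5.16 in SCC25, from 10.5 ± 3.25 to 399.5 ± 30.9 normalized counts in the latter. PLAU rose in SCC25 from a mean of 20524 to 33364 normalized counts (log2 0.70, limma adjusted p = 7.39e-09). In SCC15 PLAU had 11 to 37 reads per DMSO library and did not pass (log2 -0.092, limma adjusted p = 0.859). PLAT, the tissue-type activator, fell in SCC25 from 11190.4 ± 188 to 454 ± 58.2 (log2 -4.63, limma adjusted p = 7.36e-14). In SCC15, where PLAT was low, its log2 fold change was 0.98 (limma, adjusted p = 0.00249) and 0.50 with equal totals (limma, adjusted p = 0.0655).

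ADAM and ADAMTS proteases, several of which TIMP3 inhibits, are 15 genes here, with 9 tested in SCC15 (1 higher, 5 lower) and 11 in SCC25 (5 higher, 5 lower). With equal totals 0 were higher and 6 lower in SCC15. The lower count in SCC15 was 3 without ACGs replicate 2 or without DMSO replicate 1 or 3, and 2 without DMSO replicate 2. The higher count was 3 without ACGs replicate 3. ADAMTS6 had log2 fold changes of -0.72 in SCC15 (limma, adjusted p = 0.0108, and 0.0519 without DMSO replicate 2) and 2.92 in SCC25. ADAM8 fell by 2.28 in SCC15, where it had 4 to 13 reads per ACGs library, and rose by 1.06 in SCC25 on the log2 scale. ADAM19 fell from 477 ± 21.1 to 40.6 ± 10.5 in SCC25 and had 0 to 3 reads per library in SCC15.

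Partners of the members, which bind them, cut their propeptides or hold them at the cell surface, are 10 genes, of which 6 rose and 1 fell in SCC15, while 2 rose and 6 fell in SCC25. With equal totals the counts were 4 and 3 in SCC15 and 2 and 8 in SCC25, and the lower count in SCC15 was 2 without ACGs replicate 2 or 3. LCN2, lipocalin-2, which binds MMP9, rose in SCC15 (log2 1.11) and fell in SCC25 (log2 -1.54) from 23403 ± 324 to 8053 ± 479 normalized counts. CD44, a hyaluronan receptor that docks MMPs, had log2 fold changes of 0.64 and 1.13, and 0.14 with equal totals in SCC15 (limma, adjusted p = 0.130). PCSK6, a proprotein convertase, fell in SCC25 by 1.36 and had -0.67 in SCC15 (limma, adjusted p = 0.0746), with -0.90 without ACGs replicate 2 (limma, adjusted p = 0.0358) and -0.32 without ACGs replicate 3 (limma, adjusted p = 0.00562).

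AP-1, ETS and RUNX factors, known regulators of MMP genes, are 13 genes, all tested in both lines, of which 9 rose and 2 fell in SCC15, while 9 rose and 4 fell in SCC25 (7 and 4 in each with equal totals). JUN rose by 1.95 in SCC15 and by 1.38 in SCC25, and JUND by 1.33 in each. FOS, which encodes 1 of several partners of JUN in AP-1, fell in both, from 238 ± 30.6 to 100.2 ± 13.3 in SCC15 (log2 -1.24, limma adjusted p = 4.84e-04) and from 3962 ± 129 to 212 ± 25.8 in SCC25 (log2 -4.22, limma adjusted p = 3.24e-13). Members of AP-1 thus moved in opposite directions within each line.

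Matrix proteins that MMPs cut are 12 genes, with 9 tested in SCC15 (3 higher, 2 lower) and 12 in SCC25 (5 higher, 5 lower). In SCC15 6 were higher without ACGs replicate 3, and 0, 0 and 1 were lower without DMSO replicate 1, 2 and 3. With equal totals 2 rose and 4 fell in SCC15, against 5 and 7 in SCC25. LAMB3, a laminin chain of the basement membrane, rose in both lines, by 1.71 in SCC15 and by 0.69 in SCC25 on the log2 scale. HSPG2, perlecan, fell from 22525 ± 482 to 2948 ± 917 in SCC25 (log2 -2.98). In SCC15 HSPG2 had a log2 fold change of -0.49 (limma, adjusted p = 0.399), and 0.15 without ACGs replicate 3 (limma, adjusted p = 0.00549).

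**Figure D4:**
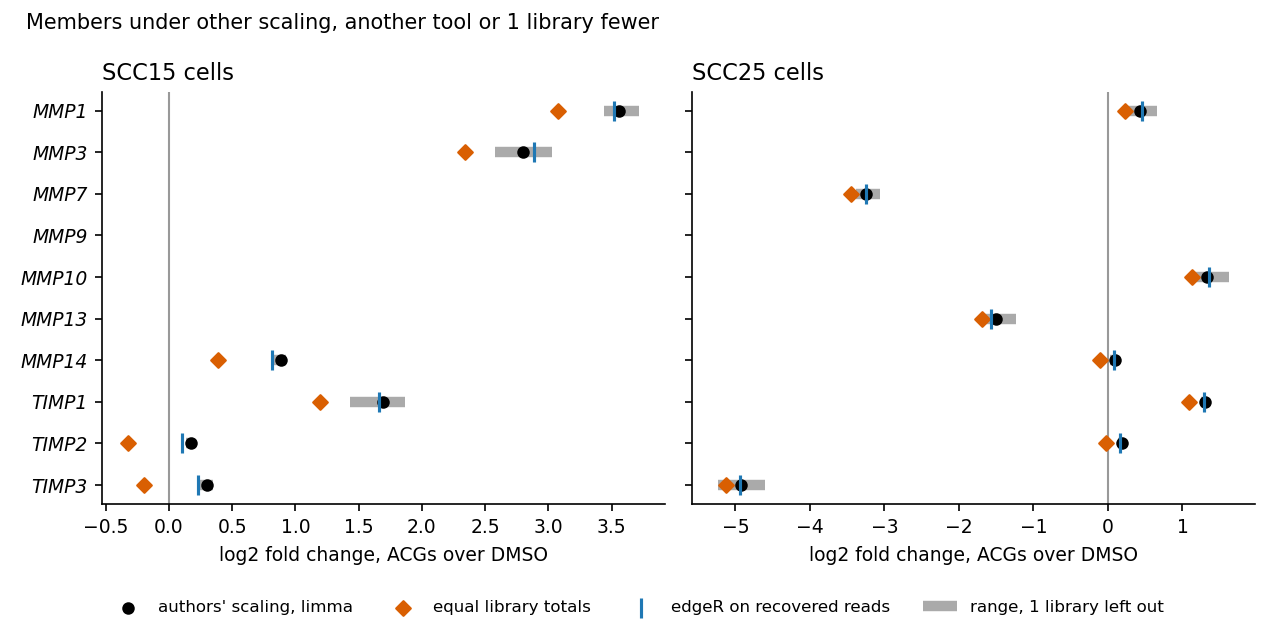
Log2 fold change of each tested member under the authors' scaling (black), equal library totals (orange), edgeR on the recovered reads (blue tick) and with 1 library left out (grey range), in SCC15 and SCC25. TIMP2 in both lines, TIMP3 in SCC15 and MMP14 in SCC25 cross 0 with equal totals, and the other values keep their side.

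Markers of cell types were summed per library. Squamous markers summed to 7790 to 8176 CPM (reads relative to the library's reads on genes) in SCC15 with DMSO and 10781 to 15431 with ACGs, and 2226 to 2277 and 2983 to 3163 in SCC25. KRT17 made up most of the SCC15 reads on this list, with 125070 to 142112 reads per library with DMSO and 175659 to 284640 with ACGs. Of the 7 tested in SCC15, 4 were higher (KRT17, KRT14, SFN and PERP) and 0 lower by limma, and with equal totals 3 were higher and 3 lower (SFN had an adjusted p of 0.125 by limma with equal totals and 0.0505 without DMSO replicate 2). KRT5, DSG3 and DSC3 were below the mean required for a test in SCC15. All 10 were tested in SCC25, with 6 higher and 3 lower (KRT5, DSC3 and ITGB4).

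Some markers of other cell types had reads in both lines. In SCC15 with DMSO, 6 of 8 fibroblast, 2 of 6 leukocyte and 1 of 4 endothelial markers had over 3 reads in every library. In SCC25 with DMSO these were 5, 4 and 3. The sums thus rest on part of each list and do not show that such cells were present. Fibroblast markers, 8 genes, summed to 49.0 to 54.7 CPM with DMSO and 21.6 to 26.2 CPM with ACGs in SCC15, and to 42.3 to 44.6 and 50.8 to 58.7 in SCC25. In SCC15 2 of 5 tested fell, COL3A1 (214 to 550 reads per library) and DCN (60 to 161), and 5 of 5 with equal totals. In SCC25 1 of 3 tested rose, COL1A1 (654 to 937 reads per library), and DCN had 0 to 1. Leukocyte markers, 6 genes, summed to 32.2 to 35.1 and 15.6 to 20.6 in SCC15 and to 22.0 to 26.8 and 3.90 to 5.25 in SCC25. The fall in SCC25 was carried by CD14, the 1 of 3 tested that fell, from 351 ± 43.5 to 4.81 ± 2.15 normalized counts. In SCC15 CD14 had 261 to 656 reads per library and a log2 fold change of -0.44 (limma, adjusted p = 0.0591, and 0.0245 by edgeR and 0.0401 by DESeq2), and PTPRC had 0 to 5 reads. Endothelial markers, 4 genes, summed to 10.2 to 11.5 and 3.13 to 3.67 in SCC15, where the 1 tested, PECAM1, fell. In SCC25 they summed to 12.7 to 16.2 and 0.929 to 1.80, and 3 of 3 tested fell (PECAM1, VWF and CDH5, and 2 of 3 without DMSO replicate 2). PECAM1 had 0 to 3 reads per ACGs library in SCC25. Some listed genes passed the mean of 10 only through the DMSO libraries, among them PECAM1 and CD14 in SCC25 and ADAM8 in SCC15. The counts of the lists are thus a description too. The part of these genes in the changes of the members was not tested.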

How the data were processed

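RNA-seq of SCC15 and SCC25 cells treated with ACGs or DMSO for 24 h was analysed, with 3 libraries per group and 12 in all. The authors aligned reads to GRCh38 with HISAT2 2.0.5 and counted them per gene with featureCounts 1.5.0-p3. Per the labels and the values, the deposited signal of a gene is its count over a size factor, which the authors set per library within a cell line, although the SCC25 columns are named FPKM. Multiplied back, 100% of a library's values were whole (tolerance 0.1), and these recovered reads numbered 16665563 to 22748845 per library. The authors' own fold changes and p-values, also deposited, were not used. Gene names stood as dates for 24 genes in SCC15 and 21 in SCC25.

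Log2(normalized count + 1) was tested with limma 3.58.1 (eBayes with a trend, two-sided) in R 4.3.3, per line and as a contrast of both, with Benjamini-Hochberg adjustment over all genes tested. Alternatives were a pseudocount of 0.1 or 10, testing all genes above 0 or those with at least 10 in every library, TMM factors, scaling to equal totals, count tests of the recovered reads (edgeR 4.0.16, DESeq2 1.42.0), a replicate block, leaving out each library, and requiring an absolute log2 fold change above 1. Scripts were tested on simulated data. The members and lists were chosen with earlier results of these data known. All members were named, and of each list at most 3 genes, those with the largest summed absolute log2 fold change among genes past the test with a mean of at least 100, with genes that overlap a member. MMP2, PLAU and some marker genes are named outside this rule. Reads carry no molecular identifiers, so a count of reads is not a count of molecules. Results for some single genes are not described here.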

Additional observations from a re-analysis of the deposited data

Results flagged for a closer look

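The response to ACGs differed between the lines by the test of the contrast (limma, adjusted p below 0.05) for the 14 genes given first. These leave out the cell type markers, which follow. Values are the log2 fold change in SCC25 minus that in SCC15. Among the members the difference was -3.14 for MMP1, -0.78 for MMP14 and -5.22 for TIMP3. Among related proteases it was -2.15 for MMP28, 3.64 for ADAMTS6 and 3.34 for ADAM8, which had 4 to 13 reads per ACGs library in SCC15. In plasminogen activation it was 3.80 for SERPINB2 and -5.61 for PLAT. For the partners LCN2 and CD44 it was -2.65 and 0.49. For the AP-1 genes FOS and JUN it was -2.98 and -0.56, and the difference for JUN was -0.27 with equal library totals (limma, adjusted p = 0.0597). For the matrix genes HSPG2 and LAMB3 it was -2.49 and -1.02. Of the named marker genes, CD14 (-5.53), PECAM1 (-3.59), COL1A1 (0.89) and SFN (0.73) also differed by this test. SFN lost the call without SCC15 ACGs replicate 2 (limma, adjusted p = 0.0521). In SCC25 with ACGs, CD14 had 3 to 7 reads per library and PECAM1 had 0 to 3. KRT17 and KRT14 did not pass with the authors' scaling. Groups of 3 libraries are too small for the test of single outlying samples.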

How the results depend on the processing

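Over 19 values of the members and 332 alternatives, 311 kept their direction and their side of the threshold, 8 lost the call, 5 gained one and 8 changed sign. With equal library totals, 2 members were lower in SCC15, and MMP14 in SCC25 (-0.11), TIMP2 in SCC15 (-0.32) and SCC25 (-0.021) and TIMP3 in SCC15 (-0.20) changed sign. With an absolute log2 fold change above 1, 3 members were higher in SCC15. With all genes above 0, 5 members differed between the lines, since more genes were tested. The TIMP2 difference ran from -0.033 to 0.058 when each library was left out.

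Same-numbered libraries did not deviate together (correlations of -0.0511 to 0.0078), so the numbers were not taken to pair the samples. With the replicate block, 4 members were higher in SCC15 in place of 5, since TIMP3 (0.30) had an adjusted p of 0.0541 by limma, and the other counts of members called were as without it (3 higher and 3 lower in SCC25, and 3 that differed). Members with fewer than 10 reads in most libraries (MMP9 in both lines, MMP7, MMP10 and MMP13 in SCC15, MMP3 in SCC25) are limited by depth. The count of ADAM and ADAMTS genes lower in SCC15 was 5, and 3 with all genes above 0, with at least 10 in every library or with the block. Of the leukocyte markers in SCC15, 0 were lower by limma, 1 with TMM factors, equal totals, the block, edgeR or DESeq2, and 2 without ACGs replicate 3. Requiring at least 10 in every library left 0 leukocyte and 1 endothelial marker lower in SCC25, since fewer were tested.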
